A study of Mus musculus with 3 samples.

Results

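The genes described here are the integrins, syndecans and glypicans of mouse neural stem cells (NSCs), together with Cd44, Cd47 and 5 adaptors and kinases that act at integrin contacts. The name rule that chose them was set with earlier results of these data known. It took every probe whose gene name begins with Itga, Itgb and a digit, Sdc and a digit or Gpc and a digit. To these it added Cd44, Cd47, Ilk, Ptk2, Vcl, Tln1 and Pxn. This gave 48 genes of 27672 gene names, carried by 105 of 41174 probes. The name rule also took in 5 genes that are no receptor: Itgb1bp1, Itgb1bp2, Itgb3bp, and the genes the array calls Itgb4bp and Itgb1bp3, now Eif6 and Nmrk2.

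RNA labelled knockout (KO), from NSCs of genotype Dnmt3a-/-, was set against RNA labelled wild type (WT), from wildtype NSCs, on 3 arrays that each held 1 biological replicate of both. Both kinds of NSC came from mouse embryonic stem cells, were grown in N2B27 medium with EGF and bFGF, passed through a neurosphere stage and were then kept on poly-L-ornithine and fibronectin, a coat that is itself an integrin ligand. The labels name neither the embryonic stem cell line, the number of clones nor the part of Dnmt3a that was deleted. The KO RNA carried Cy3 and the WT RNA carried Cy5 on all 3 arrays, so a bias of a probe toward 1 dye and a difference between genotypes cannot be told apart.

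Integrins are receptors of 1 α and 1 β chain that bind matrix proteins outside the cell and, through talin, vinculin and paxillin, the actin skeleton inside it. Syndecans span the membrane and glypicans are held in its outer leaflet by a lipid anchor. Both carry heparan sulfate chains, which bind growth factors such as FGFs as well as matrix proteins. In the developing brain, laminin-binding integrins help hold neural stem cells at the ventricular surface, and glypicans shape their response to growth factors. Dnmt3a encodes an enzyme that methylates DNA at CG pairs.

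Dnmt3a RNA did not follow the genotype labels. The probe A_52_P76146 gave 0.99 ± 0.08 (SD, n = 3, limma adjusted p = 1.0e-06) as the log2 ratio of KO over WT by label, so its RNA was higher in the samples labelled KO. The other tested Dnmt3a probes, A_52_P169048 and A_52_P30497, were also higher, at 0.61 ± 0.03 and 0.76 ± 0.04. All 3 lie on chromosome 12 between 3825243 and 3831024 (mm7), and the labels do not say whether the deleted part holds any of them. All directions below are between the samples as labelled and would turn if the labels were exchanged. Of 12 NSC markers all were detected, among them Nes, Sox2 and Pax6; 2 were higher and 8 lower, and their summed intensity was 57000 to 58400 in labelled KO and 67800 to 70800 in labelled WT. Of 10 leukocyte markers 6 were detected, with sums of 703 to 710 in labelled KO and 711 to 729 in labelled WT, and Ptprc and Adgre1, which define leukocytes and macrophages, were not above background in either channel. All 8 fibroblast markers were detected, with sums of 153000 to 157000 in labelled KO and 203000 to 223000 in labelled WT. Of these, 6 were lower, led by the bright collagens Col1a2 (-1.48) and Col1a1 (-0.97). Col3a1, also among the brightest, was at 0.02 and did not pass, and 1 marker, Twist1, was higher (0.27). Of 7 endothelial markers 4 were detected, with sums of 6410 to 6920 in labelled KO and 5540 to 5920 in labelled WT and with Pecam1, Cdh5 and Tie1 not above background; of these 4 only Emcn passed (0.21), and it held nearly all of the sum. The megakaryocyte (3 of 4), epithelial (3 of 6) and pluripotent (2 of 5) markers had sums between 226 and 1160 in labelled KO and between 262 and 1190 in labelled WT, with Gp9, Cdh1 and Nanog not above background. The part of such cells in the results below was not tested, and fewer cells of a type and less RNA per cell cannot be told apart in bulk RNA.

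Of the 48 genes, 40 had a probe well above background in all 3 arrays of at least 1 channel, and these were tested. In labelled KO, 16 of the 40 were higher, 8 were lower and 16 did not pass (limma on log2 ratios, Benjamini-Hochberg adjusted p under 0.05 over 18056 genes). Across all genes the same test called 47.9%, with 22.5% higher and 25.5% lower, so the adhesion genes, at 60% called, had 40% higher and 20% lower. Their median log2 ratio was 0.02, against -0.01 over all genes, and their median absolute log2 ratio was 0.15, against 0.10. Past the threshold by at least 0.3 on the log2 scale were 11 of the 40 genes (27.5%, with 13.7% over all genes): 7 higher (17.5%, with 6.96%) and 4 lower (10%, with 6.75%). All 75 tested probes of these genes passed the background filter on each of the 3 arrays in labelled KO and in labelled WT. The ratios of a pair of arrays correlated across the 40 genes at r = 0.94 to 0.96, and across all tested genes at 0.91 to 0.93; these describe agreement of arrays, since genes are not independent replicates. The p-values measure only spread between these 3 arrays, whose number limits the precision. In limma the spread of each gene is drawn toward a value estimated over all tested genes.

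How the arrays were scaled bears on every small difference here. With each array only centred on its median in place of loess normalization, the median of all genes lay at -0.26, and 1 of the 40 genes was higher and 20 were lower. Values under that setting are therefore given below relative to its median over all genes. They still shift with brightness. Bright genes near 0 as reported, such as Ndst1 (-0.0062) and Nid1 (0.05), were at -0.30 and -0.31 there. Dim ones, such as Cd53 (0.04) and Lama1 (0.05), were at 0.49 and 0.41. Such a value therefore does not compare a gene with others of its brightness.

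**Figure D1:**
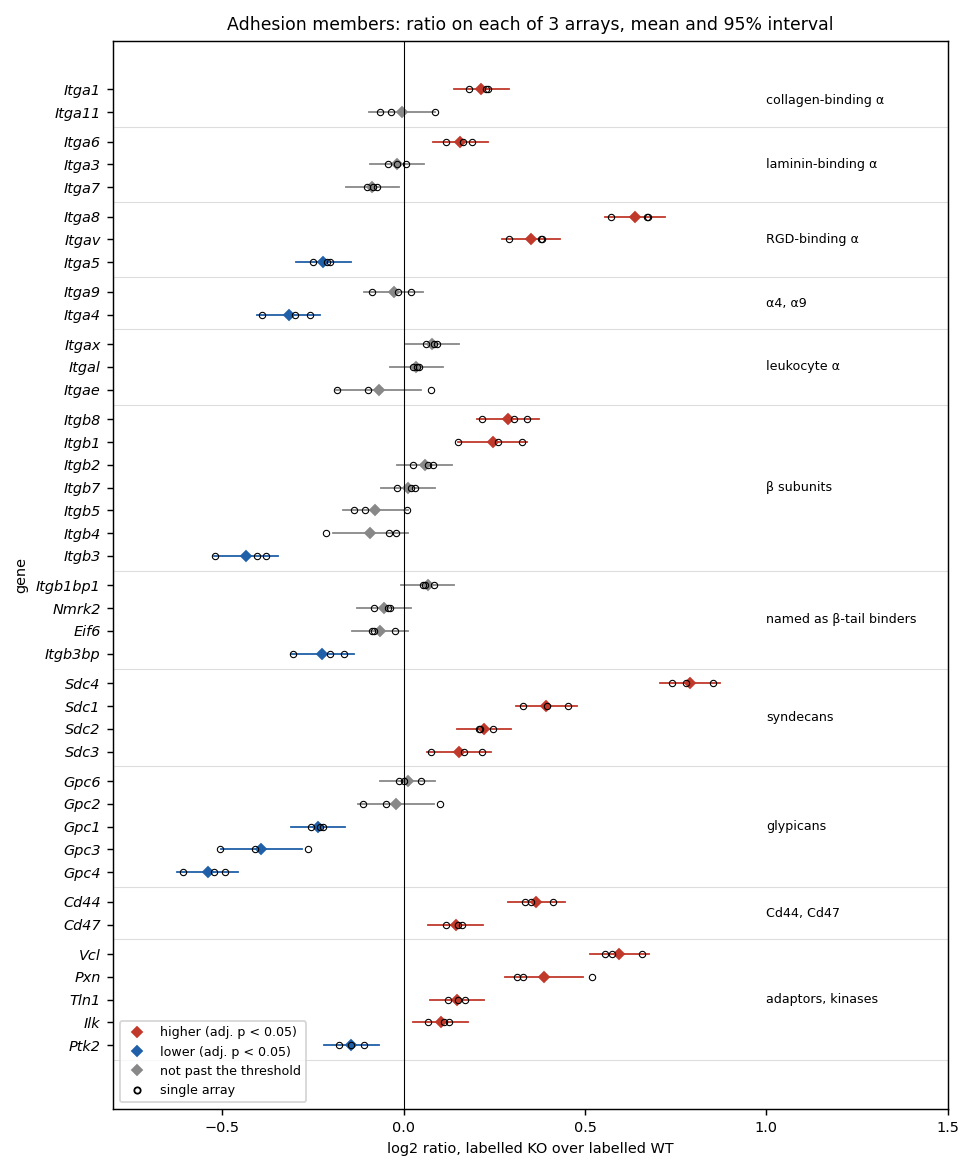
Labelled KO over labelled WT as a log2 ratio (horizontal axis) for the 40 tested genes, grouped by role; open circles are the 3 arrays, diamonds the mean and lines the 95% interval of the fit. Of the syndecans 4 of 4 lie right of 0 and of the glypicans 3 of 5 lie left of it past the threshold; relative to the all-gene median under median centring, Sdc2, Itga6, Cd47, Tln1, Ilk and, not called here, Itgb1bp1 fall below 0.

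All 4 syndecans were called higher as reported, though relative to the all-gene median under median centring Sdc2 was at -0.0042 and Sdc3 at 0.024. Sdc4, a syndecan that sits in focal adhesions and binds fibronectin alongside integrins, had the largest log2 ratio of the 40 genes as reported. Its channel levels were 9.88, 9.93 and 10.06 (log2 intensity) in labelled KO on arrays 1, 2 and 3, against 9.14, 9.16 and 9.21 in labelled WT. Every labelled KO level lay above every labelled WT level, and the groups were far apart relative to their spread. The log2 ratio was 0.79 ± 0.06 (SD, n = 3), 1.73-fold higher in labelled KO (limma adjusted p = 2.2e-06), and a second Sdc4 probe gave 0.65 ± 0.12. The probe of Sdc4 lies on chromosome 2 from 164166424 to 164166365 (mm7, reverse strand).

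Sdc1, a syndecan best known from epithelia and plasma cells, had levels of 10.61, 10.54 and 10.55 in labelled KO, against 10.16, 10.22 and 10.16 in labelled WT. The groups did not overlap, and the log2 ratio was 0.39 ± 0.06, 1.31-fold higher (adjusted p = 8.9e-05). Sdc2, a syndecan of mesenchymal and neural cells, had levels of 11.69, 11.77 and 12.06 in labelled KO, against 11.49, 11.56 and 11.82 in labelled WT. Array 3 was the highest in both channels, so the levels overlapped between groups while the ratio was stable at 0.22 ± 0.02 (adjusted p = 0.00090). Sdc3, the syndecan of neural tissue, was at 0.15 ± 0.07 by its brightest probe (adjusted p = 0.012), but a second tested probe was at -0.02, and the call was lost with the mean of both probes (0.07, adjusted p = 0.14), without array 3 (0.15, adjusted p = 0.065), with a background model that includes marked spots (0.08, adjusted p = 0.14) and with the scanner's and the authors' values (0.11 and 0.09).

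The glypicans were called in the other direction: 3 of 5 tested members were lower in labelled KO and none was higher. Gpc4, a glypican of neural precursors and other embryonic tissue, had levels of 12.59, 12.59 and 12.77 in labelled KO, against 13.09, 13.20 and 13.30 in labelled WT. The groups did not overlap on any array, with labelled KO lower throughout. The log2 ratio was -0.54 ± 0.06 (SD, n = 3), 1.45-fold lower in labelled KO (adjusted p = 1.6e-05), and a second probe gave -0.41 ± 0.04.

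Gpc3, the glypican mutated in the human Simpson-Golabi-Behmel overgrowth syndrome, had levels of 11.92, 11.83 and 11.95 in labelled KO, against 12.33, 12.33 and 12.21 in labelled WT. Labelled KO was again lower on all arrays, by least on array 3, and the log2 ratio was -0.39 ± 0.12, 1.31-fold lower (adjusted p = 0.00039). Gpc1, the main glypican of neurons, had levels of 12.00, 12.00 and 11.97 in labelled KO, against 12.26, 12.23 and 12.20 in labelled WT. The 3 arrays gave nearly the same ratio, a log2 value of -0.24 ± 0.02 (adjusted p = 0.00062). Gpc2 and Gpc6 did not pass, at -0.02 (95% interval -0.13 to 0.09) and 0.01 (-0.06 to 0.09), and Gpc5 was not above background in either channel. Mean levels in labelled KO and WT were 6.80 and 6.82 for Gpc2 and 7.26 and 7.25 for Gpc6. At such dim levels the offset added to each signal draws ratios toward 0, so a difference could be missed. Gpc4, Gpc3 and Gpc1 kept their call under every alternative run. Under median centring most calls over the array were lower, so a lower call kept there adds little. Relative to all genes the values there were -0.82, -0.63 and -0.48. Bright genes were shifted down under that setting, Ndst1 from -0.0062 to -0.30, so these larger values do not strengthen the calls.

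Gpc4 and Gpc3 are neighbours on the X chromosome, their probes 219.4 kb apart (mm7). Over the 494 tested genes of that chromosome the median log2 ratio was -0.02, while these neighbours were at -0.54 and -0.39. The share called lower on X, 30.4%, was within the range over the autosomes, 23.2% to 32%.

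The promoters of Sdc4 and Gpc4 are shown because these genes had the largest differences in either direction among the members and because CG pairs are where Dnmt3a acts. Each run holds the 250 bases before and the 50 after the gene's start on the transcribed strand, from RefSeq on build GRCm38.p6 (chr2:164443139-164443438 and chrX:52164874-52165173, both reverse strand), with CG pairs in capitals.
Sdc4: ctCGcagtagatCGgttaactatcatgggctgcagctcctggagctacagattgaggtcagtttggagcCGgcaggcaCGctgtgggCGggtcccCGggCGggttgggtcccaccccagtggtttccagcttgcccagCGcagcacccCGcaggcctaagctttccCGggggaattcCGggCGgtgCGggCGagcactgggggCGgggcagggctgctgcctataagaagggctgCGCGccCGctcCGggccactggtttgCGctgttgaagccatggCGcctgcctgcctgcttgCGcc
Gpc4: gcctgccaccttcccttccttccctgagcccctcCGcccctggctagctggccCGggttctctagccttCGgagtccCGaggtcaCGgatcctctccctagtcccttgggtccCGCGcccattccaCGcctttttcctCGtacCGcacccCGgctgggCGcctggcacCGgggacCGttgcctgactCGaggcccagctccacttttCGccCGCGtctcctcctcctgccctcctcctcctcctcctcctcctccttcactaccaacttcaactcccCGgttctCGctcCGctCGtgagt
Each of the 2 windows holds 22 CG pairs, so the genes that moved most in opposite directions had the same number there. Over the 38 promoters found for 34 of the 48 genes the median was 16 CG pairs, against 7 over all 32851 promoters of the table. The latter were not limited to genes detected here, so the 2 medians are not of like sets. Among the members the median was 24 for genes called higher (15 promoters), 20 for genes called lower (5) and 13 for genes not past the threshold (10). For genes too dim to be tested (8 promoters) it was 6. Differences between these small groups were not tested. DNA methylation was not measured in these samples. Binding motifs were searched on both strands in the same windows. TGANTCA, the letters of the AP-1 motif, was in 7.89% of the members' promoters and 7.81% of all, and GGAATG, bound by TEAD factors, in 10.5% and 14.7%, among them Gpc4, Itgb1, Vcl and Itga10. The CArG box of serum response factor was in 5.26% against 1.63%, which was 2 promoters, of Vcl and Itgb6; these matches describe letters only.

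Among the integrin α chains that read the RGD motif of fibronectin, vitronectin and osteopontin, Itga8 and Itgav were higher and Itga5 was lower in labelled KO. Itga8, which pairs with β1 and binds nephronectin and osteopontin, had levels of 11.93, 11.85 and 11.80 in labelled KO, against 11.25, 11.18 and 11.23 in labelled WT. The groups did not overlap, and the log2 ratio was 0.64 ± 0.06, 1.56-fold higher (adjusted p = 6.7e-06). Its 3 probes were each higher but by unequal amounts, 0.64, 0.40 and 0.15, and they are shown as designed on the array because the gene's value depends on which is read.
Itga8 A_51_P309920: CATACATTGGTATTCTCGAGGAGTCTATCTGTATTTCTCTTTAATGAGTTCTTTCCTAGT
Itga8 A_51_P309917: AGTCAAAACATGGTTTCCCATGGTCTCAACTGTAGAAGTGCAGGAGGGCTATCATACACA
Itga8 A_52_P658911: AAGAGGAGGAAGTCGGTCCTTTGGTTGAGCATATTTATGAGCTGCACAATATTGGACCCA
The first 2 lie close together on chromosome 2, from 12046052 to 12045993 and from 12046224 to 12046165, and the third from 12099520 to 12094670 (mm7), a span longer than the probe, so it bridges at least 1 intron. The third was the dimmest, with mean levels of 6.39 in labelled KO and 6.24 in labelled WT, and the offset added to each signal draws the ratios of dim probes toward 0.

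Itgav, the αv chain that pairs with β1, β3, β5, β6 or β8, had levels of 10.72, 10.85 and 10.95 in labelled KO, against 10.34, 10.46 and 10.66 in labelled WT. Labelled KO was higher within each array and also above every labelled WT level, with a log2 ratio of 0.35 ± 0.05, 1.28-fold higher (adjusted p = 0.00013). A second tested probe, dimmer, was at 0.04 and did not pass. Itga5, whose pair α5β1 is the classical fibronectin receptor, had levels of 9.21, 9.25 and 9.37 in labelled KO, against 9.42, 9.46 and 9.62 in labelled WT. The ratio was steady at -0.22 ± 0.03 (adjusted p = 0.00095), and relative to all genes under median centring it was -0.35. Itga2b, the platelet chain, was well above background on 2 arrays in labelled KO and 1 in labelled WT and was not tested.

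Of the 3 laminin-binding α chains 1 was higher. It was Itga6, a chain used as a marker of neural stem cells, with levels of 11.80, 11.90 and 11.57 in labelled KO, against 11.61, 11.74 and 11.46 in labelled WT. Array 3 was the lowest in both channels, so levels overlapped between groups, and the log2 ratio was 0.16 ± 0.04 (adjusted p = 0.0059), or -0.07 relative to the all-gene median under median centring. Itga3 was at -0.02 (95% interval -0.09 to 0.06) and Itga7 at -0.09 (-0.16 to -0.01, adjusted p = 0.055), neither past the threshold. Of the collagen-binding chains Itga1 was higher at 0.21 ± 0.03 (adjusted p = 0.0012), with 3 of its 4 tested probes past the threshold and the remaining one at -0.05. Itga11 was at -0.0037 (-0.10 to 0.09) and did not pass, and Itga2 and Itga10 were not tested.

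Itga4, a chain that binds VCAM-1 and fibronectin, had levels of 6.65, 6.71 and 6.54 in labelled KO, against 7.04, 6.97 and 6.84 in labelled WT. All 3 labelled KO levels lay below all 3 labelled WT levels, with a log2 ratio of -0.32 ± 0.07, 1.25-fold lower (adjusted p = 0.00032). The call rests on 1 dim probe: its 5 other probes never passed the background filter, and with the background model fitted on all spots it was at -0.05 (adjusted p = 0.11). Itga9, its nearest relative, was at -0.03 (95% interval -0.11 to 0.06). The leukocyte chains Itgax, Itgal and Itgae lay at 0.08, 0.04 and -0.07 and did not pass, and Itgam was well above background on no array in labelled KO and on 2 in labelled WT by 1 of its probes.

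Among the β chains, 2 of 7 tested were higher, 1 was lower and 4 did not pass. Itgb1 encodes β1, the common partner of most α chains described above. Its levels were 11.51, 11.45 and 11.51 in labelled KO, against 11.18, 11.30 and 11.25 in labelled WT. The groups did not overlap and the log2 ratios were 0.33, 0.15 and 0.26, a mean of 0.25 ± 0.09 (adjusted p = 0.0019), or 0.034 relative to all genes under median centring. That probe was spotted 10 times per array, and the SD between spots was 0.05 to 0.06 on the log2 scale, so the spread between arrays was larger than that between spots. A second tested probe of Itgb1 was at -0.07 ± 0.03 (adjusted p = 0.13), and with the mean of both probes the gene no longer passed (0.09, adjusted p = 0.070). Both are shown because they disagree.
Itgb1 A_51_P286527: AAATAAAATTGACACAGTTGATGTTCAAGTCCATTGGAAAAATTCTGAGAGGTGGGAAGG
Itgb1 A_52_P351816: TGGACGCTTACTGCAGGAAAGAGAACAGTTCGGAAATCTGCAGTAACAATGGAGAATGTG
They lie on chromosome 8 from 127341194 to 127341253 and from 127331051 to 127331110 (mm7), with 36.7% and 45% G and C.

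Itgb3, the partner of αv in the vitronectin receptor, had levels of 8.87, 8.84 and 8.96 in labelled KO, against 9.39, 9.21 and 9.36 in labelled WT. No level of labelled KO reached the lowest of labelled WT, and the log2 ratio was -0.43 ± 0.08, 1.35-fold lower (adjusted p = 7.2e-05). Its second probe was also lower, but at -0.10 ± 0.03 (adjusted p = 0.041), and the mean of both was -0.27. Itgb8, a β chain of αv expressed by neural precursors and glia, was higher at 0.29 ± 0.06 (adjusted p = 0.00048), and at 0.07 with the background model fitted on all spots. The other tested Itgb8 probes were at 0.18 and 0.02. Itgb5, also a partner of αv, had levels of 12.20, 12.13 and 11.97 in labelled KO, against 12.20, 12.24 and 12.10 in labelled WT. These overlapped, and its log2 ratio of -0.08 (95% interval -0.17 to 0.01) did not pass. Itgb4 at -0.09, Itgb7 at 0.01 and Itgb2 at 0.06 did not pass either, and Itgb6 and Itgb2l were not tested.

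The αv heterodimers thus held members that went both ways: the αv chain and β8 were higher, β3 was lower and β5 did not pass. The α5β1 pair likewise had its α chain lower and its β chain higher by 1 of 2 probes. These are RNA levels of single chains, and no dimer was measured.

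Of the genes named for binding a β tail, Itgb3bp, a centromere and nuclear receptor protein also known as CENP-R, was lower at -0.22 ± 0.07 (adjusted p = 0.0020), though not with the scanner's or the authors' values (both -0.15, adjusted p = 0.087). Itgb1bp1, which encodes the integrin inhibitor ICAP-1, was at 0.07 (95% interval -0.01 to 0.14) by its brightest probe, while a dimmer probe was lower at -0.21 ± 0.02 (adjusted p = 0.0013). The probes of this gene thus went opposite ways. Eif6, a ribosome assembly factor, and Nmrk2, a nicotinamide riboside kinase, were at -0.06 and -0.05 and did not pass. Itgb1bp2, known from muscle, was not tested.

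Cd44, the hyaluronan receptor, had levels of 10.27, 10.18 and 10.43 in labelled KO, against 9.92, 9.84 and 10.02 in labelled WT. The groups did not overlap. The log2 ratio was 0.37 ± 0.04, 1.29-fold higher (adjusted p = 8.5e-05), and a second probe, spotted 10 times per array, gave 0.37 ± 0.05. Cd47, an integrin-associated protein that signals to macrophages through Sirpa, had levels of 12.17, 12.17 and 12.11 in labelled KO, against 12.05, 12.01 and 11.96 in labelled WT. The groups were narrowly apart, with a log2 ratio of 0.14 ± 0.02 (adjusted p = 0.0077), or -0.10 relative to the all-gene median under median centring. All 4 of its probes were past the threshold and higher, between 0.14 and 0.41, but the call was lost with the authors' values (0.10, adjusted p = 0.12) and the scanner's (0.10, adjusted p = 0.078).

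Of the 5 proteins that link integrins to actin and to kinase signals, 4 were higher and 1 was lower in labelled KO. Vcl encodes vinculin, which strengthens the link under tension. Its levels were 11.54, 11.50 and 11.50 in labelled KO, against 10.88, 10.95 and 10.93 in labelled WT. Within each group the 3 levels were nearly the same and the groups were far apart, with a log2 ratio of 0.60 ± 0.05, 1.51-fold higher (adjusted p = 9.0e-06), and a second probe gave 0.31 ± 0.08.

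Pxn, which encodes the scaffold paxillin, had levels of 8.87, 8.76 and 8.73 in labelled KO, against 8.35, 8.44 and 8.40 in labelled WT. The groups did not overlap, and array 1 gave the largest log2 ratio, 0.52 against 0.31 and 0.33, for a mean of 0.39 ± 0.11 (adjusted p = 0.00035). Its other tested probes were at 0.11 and -0.03 and did not pass, and with the background model fitted on all spots Pxn itself no longer passed (0.19, adjusted p = 0.079). Tln1 encodes talin, which opens integrins from inside. Its levels were 10.43, 10.44 and 10.43 in labelled KO, against 10.31, 10.27 and 10.29 in labelled WT.

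The Tln1 groups were apart by a small, steady difference of 0.15 ± 0.02 (adjusted p = 0.0068), and all 3 probes were past the threshold and higher, but the value was -0.025 relative to the all-gene median under median centring, and the authors' values gave 0.12 (adjusted p = 0.070). Ilk, a pseudokinase that joins parvin and PINCH at β tails, had levels of 11.39, 11.30 and 11.41 in labelled KO, against 11.26, 11.23 and 11.30 in labelled WT. The lowest labelled KO level and the highest labelled WT level were equal at this precision. The log2 ratio was 0.10 ± 0.03 (adjusted p = 0.033), a call lost when any 1 array was left out (0.09 to 0.12) and at -0.11 relative to all genes under median centring. Ptk2, the focal adhesion kinase, had levels of 9.81, 9.90 and 9.91 in labelled KO, against 9.99, 10.01 and 10.06 in labelled WT. Labelled KO was lower throughout, at -0.14 ± 0.04 (adjusted p = 0.0086), but its other 2 probes were at 0.02 and 0.00 and the mean of the probes did not pass (-0.04, adjusted p = 0.32), nor did the scanner's or the authors' values (-0.04 and -0.05).

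**Figure D2:**
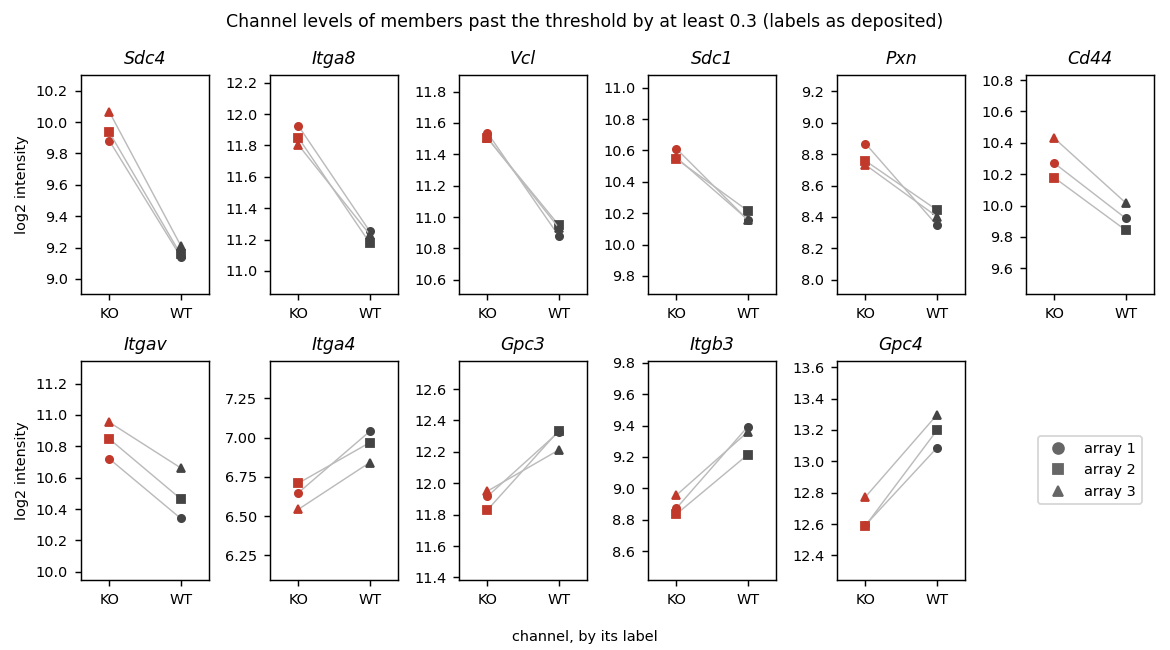
Channel level (log2 intensity, vertical axis) in labelled KO (left in each panel) and labelled WT (right) for the 11 genes past the threshold by at least 0.3; symbols mark arrays and lines join the channels of 1 array, and each panel spans the same number of log2 units. In all 11 panels the 3 labelled KO levels do not overlap the 3 labelled WT levels; Cd44, Itgav and Sdc1 have ratios below 0 under median centring but lie above the median of all genes there.

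By channel level, 16 of the 40 genes had all 3 labelled KO levels above all 3 labelled WT levels (40%, with 21.2% over all tested genes), and 11 had them all below (27.5%, with 24.0% over all tested genes). In the other 13 the levels overlapped. Probes of 1 gene often gave unequal values, as the plot of probes by gene shows.

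**Figure D3:**
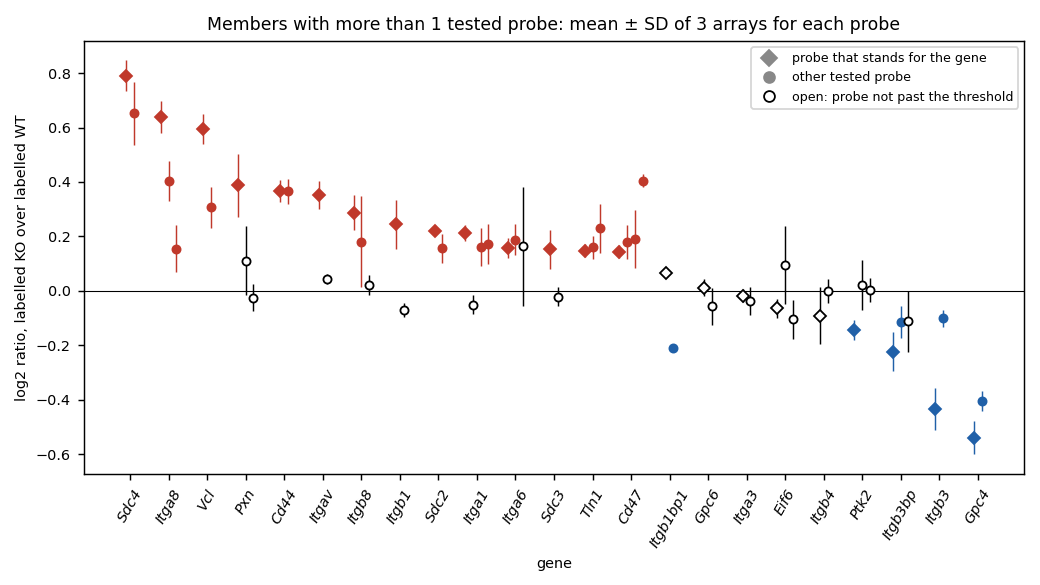
Labelled KO over labelled WT as a log2 ratio (vertical axis, mean ± SD of 3 arrays) for each tested probe of the genes with more than 1; diamonds mark the probe that stands for the gene and open symbols probes not past the threshold. Sdc4, Itga8, Vcl, Cd44 and Tln1 have all their tested probes higher and Gpc4 and Itgb3 all lower, while the 2 probes of Itgb1bp1 lie on opposite sides of 0.

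Genes that work with these receptors were read from 5 further lists, also chosen with earlier results of these data known. Of 49 tested focal adhesion partners, 26 were higher and 9 lower (53.1% and 18.4%, with 22.5% and 25.5% over all genes), with a median log2 ratio of 0.12. Under median centring 4 were higher and 22 lower, with a list median of 0.04 relative to all genes. With the background model fitted on all spots 15 were higher, and those lower numbered 5 with the scanner's or the authors' values and 4 without array 3. Bcar1, the stretch-sensing scaffold p130Cas, was at 0.70 ± 0.09, Lims2, a PINCH protein that partners Ilk, at 0.54 and Apbb1ip, which recruits talin with Rap1, at 0.54. The lower ones were led by the caveolae protein Cav1 at -0.87 ± 0.11, the second talin Tln2 at -0.32, and Evl and Enah, actin polymerisation factors, at -0.23 and -0.18.

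Integrin ligands spread widest. Of 33 tested, 15 were higher and 8 lower (45.5% and 24.2%, with 22.5% and 25.5% over all genes), with a median of 0.08. Under median centring 3 were higher and 15 lower, with a median of 0.04 relative to all genes. Spp1, osteopontin, a ligand of αv and α8 integrins, had log2 ratios of 2.54, 2.51 and 2.53 on arrays 1, 2 and 3. It was 5.76-fold higher in labelled KO (adjusted p = 9.9e-09), beside Itgav and Itga8 higher and Itgb3 lower. Vcam1, the ligand of α4 integrins, was higher at 0.96 ± 0.09, with Itga4 lower. The matrix glycoprotein Tnc was at 0.78 ± 0.10 and the αv ligand Mfge8, a very bright gene, at 0.75 ± 0.22. The fibrillar collagens Col1a2 and Col1a1 were lower at -1.48 ± 0.02 and -0.97 ± 0.14, Ccn3 at -0.62 and fibrillin Fbn1 at -0.60. Both collagens are also fibroblast markers. Fn1, fibronectin, did not pass: array 1 stood apart at 0.93, with 0.12 and 0.14 on the others (mean 0.39, 95% interval 0.07 to 0.72, adjusted p = 0.051), and vitronectin Vtn was at -0.06.

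Genes for making and trimming heparan sulfate, the chain that syndecans and glypicans carry, were listed together with some that do neither. Among these are Pcsk6, a convertase that binds the chain, and Ust, a sulfotransferase of chondroitin and dermatan sulfate. Of 25 tested, 8 were higher and 4 lower, and the 48% called were close to the 47.9% over all genes, with a median of 0.01. Under median centring 1 was higher and 17 lower, with a median of -0.04 relative to all genes, and with the background model fitted on all spots 2 were lower. The members that moved most were not those that build the chain's backbone. Both extracellular sulfatases, which remove 6-O-sulfate, were higher, Sulf1 at 0.97 ± 0.03 (adjusted p = 5.2e-07) and Sulf2 at 0.78 ± 0.03. Hs6st1, which adds that sulfate, was lower at -0.93 ± 0.05 (adjusted p = 7.9e-07), while its relatives Hs6st2 and Hs6st3 were at 0.05 and -0.02 and did not pass. Pcsk6 was at 0.65, and Hs2st1, the 2-O-sulfotransferase, at 0.28. Glce, the epimerase that turns glucuronic into iduronic acid, was lower at -0.74 ± 0.02, Ust at -0.15 and Hs3st3b1 at -0.11. Sulfation of the chains was not measured.

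On the hyaluronan side of Cd44, 3 of 11 tested genes were higher and 4 lower (27.3% and 36.4%, with 22.5% and 25.5% over all genes). Under median centring 1 was higher and 9 lower, with a median of -0.13 relative to all genes. Cemip, a hyaluronan-degrading protein, was at 0.79 ± 0.26 and the hyaluronidase genes Hyal1 and Hyal2 at 0.29 and 0.11, though Hyal2 was at -0.13 relative to all genes under median centring. Has2, a hyaluronan synthase, was lower at -0.67 ± 0.03 (adjusted p = 3.2e-06), with Tnfaip6, which cross-links hyaluronan, at -0.49, and Rdx and Ezr, which tie Cd44 to actin, at -0.27 and -0.16. Msn, a further such linker in the list, was at -0.0081 and did not pass. Of 17 tetraspanins and other lateral partners 7 were higher and 2 lower (41.2% and 11.8%, with 22.5% and 25.5% over all genes). Under median centring 1 was higher and 9 lower, with a median of -0.02 relative to all genes, and 1 was lower with the scanner's or the authors' values or with the background model fitted on all spots. Cd151, the tetraspanin of laminin-binding integrins, was at 0.50 ± 0.01, Cd9 at 0.36, the Cd47 ligand Sirpa at 0.32 and the syndecan adaptor Sdcbp at 0.31, the last at -0.015 relative to all genes under median centring. Slc3a2, the heavy chain of CD98, and Plaur, the urokinase receptor, were lower at -0.22 and -0.15.

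**Figure D4:**
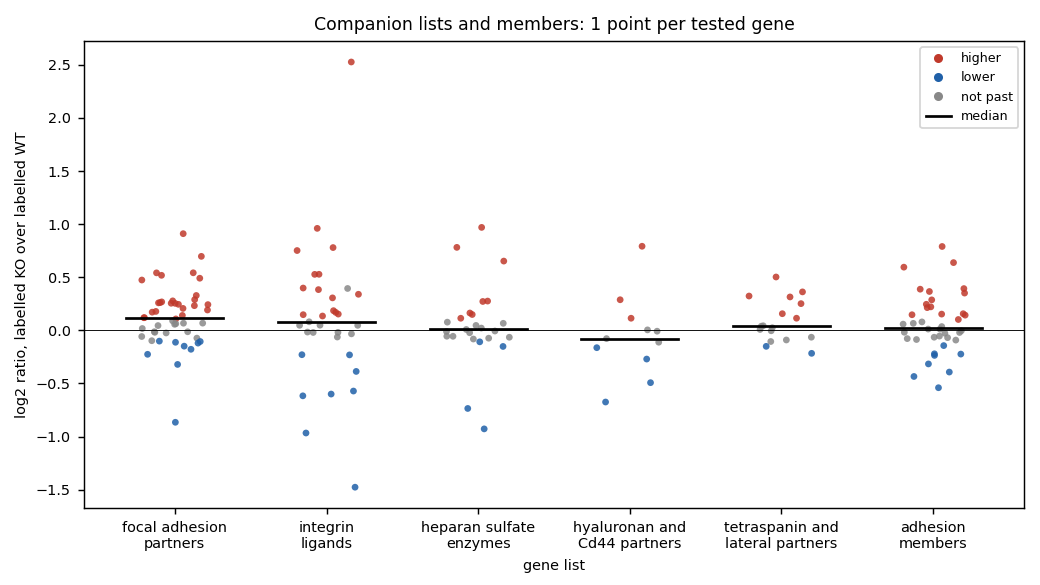
Labelled KO over labelled WT as a log2 ratio (vertical axis) of every tested gene in the 5 companion lists and among the 40 adhesion genes; colour gives the call and the bar the median of the list. Medians lie between -0.08 and 0.12, close to 0, while single genes reach 2.53 for Spp1 and -1.48 for Col1a2; relative to the all-gene median under median centring the medians of the 5 companion lists lie between -0.13 and 0.04.

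**Figure D5:**
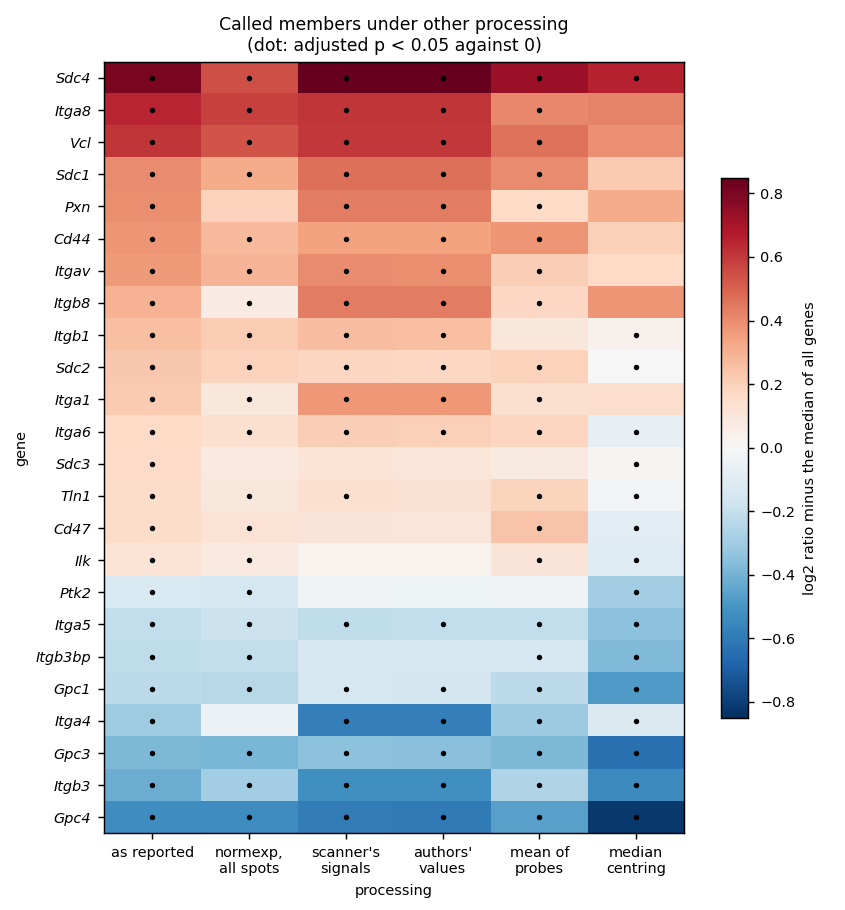
Log2 ratio of the 24 called genes minus the median of all genes (colour) under 6 kinds of processing, with a dot where the test against 0 passed. Sdc4 stays red and Gpc4, Gpc3, Gpc1, Itgb3 and Itga5 stay blue with a dot throughout, while Sdc2, Itga6, Tln1, Cd47 and Ilk are above 0 as reported and below it under median centring. Bright genes near 0 as reported, such as Ndst1 at -0.0062, also lie below it there, at -0.30 for Ndst1.

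Of the 24 called genes, 6 kept call and direction under every alternative run: Sdc4 higher, and Gpc4, Gpc3, Gpc1, Itgb3 and Itga5 lower. With median centring left aside, 15 did so. Under median centring 9561 of 18056 genes were called lower in the test against 0, so a lower call kept there is no sign of stability. Relative to all genes Sdc4 was at 0.65 and the others between -0.82 and -0.35, values that also shift with brightness.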

How the data were processed

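Total RNA was amplified to labelled cRNA and hybridised to 3 two-colour Agilent arrays on 1 slide, per the labels and the file headers. The deposited files from the scanner give spot and background intensity and a log10 ratio (red over green), per the file headers, which name Feature Extraction 9.5.3.1 as the software and mm7 as the build of the probe positions. The authors' value table was read as log2 ratios of labelled KO over labelled WT, since it ran opposite to the scanner's log2 red over green (r = -0.998, -0.996 and -0.992 across spots); its centring is unknown.

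Signals were corrected with normexp (limma 3.58.1, R 4.3.3, offset 50), fitted on spots without outlier marks, a choice made with the results of both fits known, then normalized by loess, turned to labelled KO over labelled WT and averaged per probe. Control spots and the 142, 150 and 210 marked spots were left out and saturated ones kept. Saturated spots numbered 1, 13 and 4 on arrays 1, 2 and 3 in labelled KO, and 172, 126 and 111 in labelled WT. Channel levels are log2 intensity after loess and Aquantile normalization. In labelled KO 63.6% to 65.0% of probes passed the scanner's background test, and in labelled WT 65.6% to 68.8%. A probe was tested if it passed on all 3 arrays in at least 1 channel, and the brightest stood for its gene. The mean ratio was tested against 0 with lmFit and eBayes (two-sided, Benjamini-Hochberg over 18056 genes). Of the members' probes 70 were named by accession and 35 by symbol or synonym, and 3 probes of Itgav and Itga9 that carry other names in the files were left out.

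The members and the companion and marker lists were chosen with earlier results of these data known. Values per array are given for members past the threshold by at least 0.3, for the brightest chain of each family and for Itgb1, Itgav, Itga5, Itga6, Cd44, Cd47, Ilk, Ptk2, Vcl, Tln1 and Pxn; in each companion list up to 4 genes in either direction are named (1 of them is not reported here), and Fn1, Vtn, Hs6st2 and Hs6st3, and the values per array of Gpc1, Spp1 and Fn1, were added after their values were seen. Alternatives changed the background model and offset, the normalization, the signal source, the filter on dim probes, the use of probes and saturated spots, and left out each replicate.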

Additional observations from a re-analysis of the deposited data

How the results depend on the processing

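The split of the 40 members, 16 higher and 8 lower, depended on loess. With median centring 1 was higher and 20 lower, and over all genes 761 were higher and 9561 lower, with the median of all genes at -0.26. Under it the ratios of Cd44 (-0.058), Cd47 (-0.36), Ilk (-0.37), Itga1 (-0.11), Itga6 (-0.33), Itgav (-0.094), Itgb1 (-0.23), Itgb1bp1 (-0.43), Sdc1 (-0.041), Sdc2 (-0.27), Sdc3 (-0.24) and Tln1 (-0.29) were below 0, and relative to that median Cd44, Itga1, Itgav, Itgb1, Sdc1 and Sdc3 stayed above it. With normexp fitted on all spots 2317 genes were higher over the array, against 4055 as reported, and 3135 were lower, against 4598. The scanner's processed signals put Itgb7, at 0.01 as reported, at -0.23 and past the threshold. The cause of these shifts was not tested. In the other alternatives the members higher numbered 12 to 16 and those lower 6 to 9. Leaving out each replicate in turn gave 14 to 15 members higher and 8 to 9 lower, with 3106 to 3857 and 3465 to 4093 over all genes, and 22 of the 24 calls held each time, all but those of Ilk and Sdc3. The test of ratios within arrays is itself paired by replicate number, and no fit without that pairing was run. Members dim in both channels, such as Itga4, Itga7, Itga11, Itgb4, Itgb7, Itgb8, Gpc2, Gpc6 and the leukocyte chains, have ratios drawn toward 0 by the offset.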
